A study of Mus musculus with 4 samples.

Results

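The genes described here were grouped under the myeloid primary granule, the azurophil granule that forms at the promyelocyte stage: Mpo, Ctsg, Elane, Prtn3, Ms4a3 and Srgn. Ms4a3, a membrane protein of granulocyte and monocyte progenitors, is included under the group's name. All 6 genes were taken by symbol. Every probe set annotated to exactly 1 of these symbols was used, which gave 6 probe sets for 6 genes, 1 for each, out of 12394 genes measured by 20393 probe sets with a single gene symbol. No probe set named a member together with another gene (0 found).

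The arrays measured RNA of mouse bone marrow cells that carry Mll-AF4stop, a knock-in allele holding a fusion of Mll and AF4 behind a stop that Cre recombinase removes. All 4 samples share that allele and the same handling: 5-FU, a drug that kills cycling cells, was given to the mice, the marrow was infected 5 days later, GFP+ cells were sorted after another 2 days, and they were then grown for 14 days with cytokines that favour lymphoid progenitors. The Cre-GFP group (2 arrays) received the retrovirus with Cre and GFP, and the control group (2 arrays) received what the sample labels call a GFP control virus, although the series' design text names it MIG-Cre, so the absence of Cre from the control rests on the sample labels. The age of the mice, the number of mice behind an array and whether replicates come from different animals or cultures are not given in the sources used here, so p-values reflect how much these arrays scatter, and that scatter may be technical. An effect of Cre itself and of the fusion cannot be told apart in this design.

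Primary granules hold myeloperoxidase and a set of neutral serine proteases that are made during a short stage of granulocyte and monocyte development. Transcription of these genes is known to depend on PU.1 (Spi1), C/EBP factors, Myb and Runx1. Cathepsin C (Ctsc) cuts the protease precursors to their active form, serglycin (Srgn) is the proteoglycan that packs them, and serpins such as Serpinb1a inhibit them. Most of these genes are switched off before the late granule proteins of mature neutrophils appear, while Srgn stays on in many kinds of blood cell.

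Mpo and Ctsg were about 2-fold higher in Cre-GFP cells (2.38-fold and 1.99-fold), Prtn3 was 1.63-fold higher with a wide spread between the control arrays, and Elane was 1.20-fold higher. Ms4a3 (1.15-fold higher) and Srgn (1.13-fold lower) overlapped between the groups. Thus 5 of the 6 genes had the higher mean in Cre-GFP, as did 50.6% of all probe sets, and for 4 of the 6 each Cre-GFP value exceeded each control value, which held for 15.4% of all probe sets. In limma, 0 of the 6 passed Benjamini-Hochberg adjustment over all 20393 probe sets at 0.05, and neither did any other probe set (0% in each direction, 976 at an unadjusted p under 0.05). Of the 6, 3 had an unadjusted p under 0.05 with a higher mean in Cre-GFP, against 2.36% of all probe sets. The members were named with earlier results of these arrays known, so these counts are a description. The median log2 difference was 0.48 over the 6 probe sets and 0.00 over all probe sets.

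**Figure D1:**
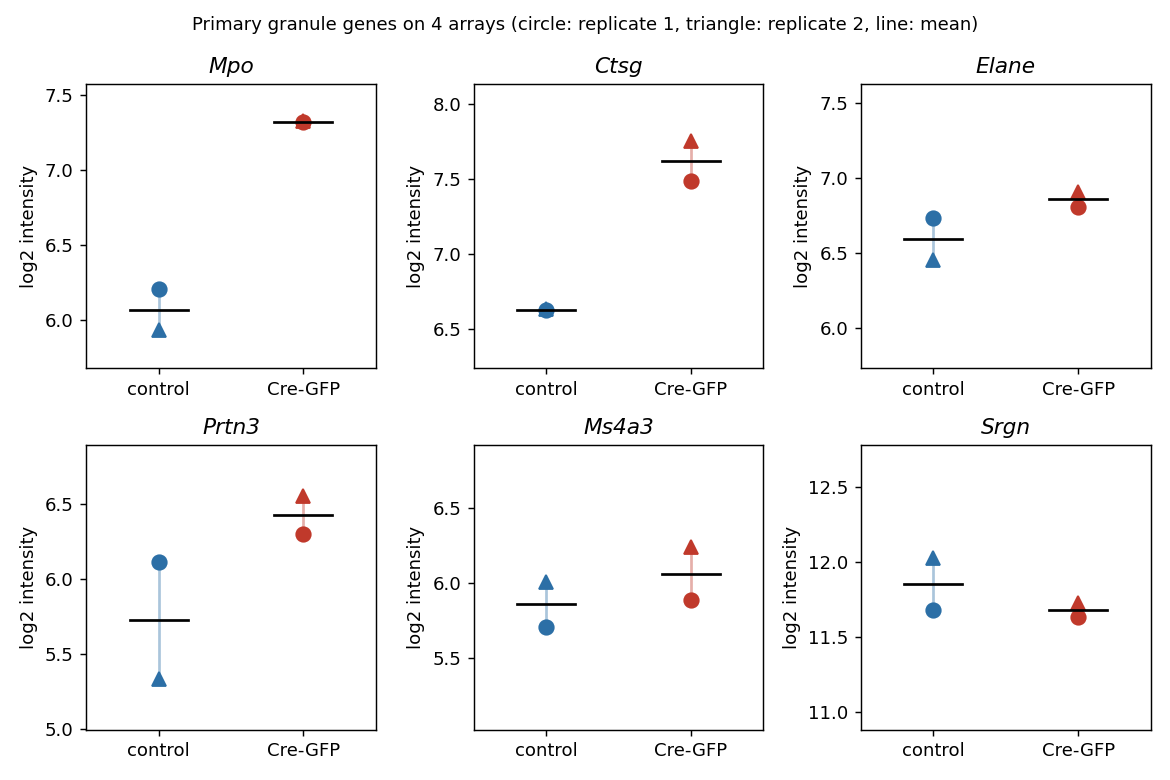
Log2 intensity of the 6 primary granule genes in each of the 4 arrays (y axis, each panel spanning the same range of log2 units around its own centre), by group (x axis); circles are replicate 1, triangles replicate 2 and black lines group means. The Cre-GFP arrays lie above both control arrays for Mpo, Ctsg, Elane and Prtn3, and the groups overlap for Ms4a3 and Srgn.

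Mpo makes hypochlorous acid from hydrogen peroxide and is a standard marker of the early myeloid stage. Its intensity on the linear scale was 159.8 and 160.1 in Cre-GFP 1 and 2, against 73.9 and 60.9 in control 1 and 2, which is 7.32 and 7.32 against 6.21 and 5.93 on the log2 scale. Both Cre-GFP arrays read nearly the same value, and the nearest control array lay 1.11 log2 units below them. The log2 difference was 1.25 ± 0.15 (SE, n = 2 per group; 95% confidence interval 0.88 to 1.62; unadjusted p = 0.000183 and adjusted p = 0.24 in limma). It ranked 29th from the top by size and 14th by p-value among all probe sets. The adjusted p ranged from 0.092 to 0.98 over the alternative settings.

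Ctsg encodes cathepsin G, a chymotrypsin-like serine protease of the granule. Its log2 intensity was 7.48 and 7.75 in Cre-GFP 1 and 2, against 6.62 and 6.63 in control 1 and 2. Here the control arrays agreed within 0.0075 log2 units and the Cre-GFP arrays differed by 0.27, with a gap of 0.85 between the groups. Between groups the log2 difference was 0.99 ± 0.16 (SE, n = 2 per group; 95% interval 0.61 to 1.38; adjusted p = 0.40 in limma, 0.22 to 0.98 over the alternatives).

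Prtn3 (proteinase 3) and Elane (neutrophil elastase) are elastase-like serine proteases whose genes lie next to each other on chromosome 10. Prtn3 read 6.30 and 6.55 in Cre-GFP 1 and 2, against 6.11 and 5.34 in control 1 and 2 on the log2 scale. Its groups did not overlap, but control 1 lay only 0.19 below the lower Cre-GFP array, whereas control 2 lay 0.78 below control 1. The log2 difference was 0.70 ± 0.26 (SE, n = 2 per group; 95% interval 0.05 to 1.35; unadjusted p = 0.0381 and adjusted p = 0.99 in limma), and it was 0.32 without control 2 and 1.09 without control 1.

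Elane read 6.81 and 6.91 in Cre-GFP 1 and 2, against 6.73 and 6.45 in control 1 and 2. The order of the 4 arrays was that of Prtn3, with control 2 lowest, control 1 next and Cre-GFP 2 highest, and the gap between the groups was 0.07 log2 units. The log2 difference of 0.26 ± 0.15 (SE, n = 2 per group; 95% interval −0.12 to 0.64; adjusted p = 1 in limma) was 0.12 without control 2 and 0.40 without control 1. The intervals of Mpo and Elane did not overlap, although the difference between the 2 genes was not tested.

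Ms4a3 is a membrane protein of granulocyte and monocyte progenitors that spans the membrane several times. Its log2 intensity was 5.89 and 6.24 in Cre-GFP 1 and 2, against 5.71 and 6.01 in control 1 and 2. In each group replicate 2 was the higher array, by 0.35 in Cre-GFP and 0.30 in control, and control 2 lay above Cre-GFP 1. The log2 difference was 0.20 ± 0.18 (SE, n = 2 per group; 95% interval −0.23 to 0.64; adjusted p = 1 in limma), and it was 0.03 without Cre-GFP 2 and 0.05 without control 1.

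Srgn, the core protein that carries the sulfated chains binding the granule proteases, was read at high signal, with linear intensities of 3176 and 3388 in Cre-GFP 1 and 2, against 3280 and 4178 in control 1 and 2. On the log2 scale these are 11.63 and 11.73 against 11.68 and 12.03. Control 1 lay between the Cre-GFP arrays and control 2 above them. On average Srgn differed by −0.17 ± 0.17 on the log2 scale (SE, n = 2 per group; 95% interval −0.59 to 0.24; adjusted p = 1 in limma), −0.35 without control 1 and −0.00 without control 2. The interval excluded a difference as large as that of Mpo or Ctsg.

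Set beside the array medians of 86.9 to 89.4, Mpo lay above the median in both Cre-GFP arrays and below it in both control arrays. Ctsg lay above it in all 4 arrays, Srgn likewise, Elane in all but control 2, and Ms4a3 below it in all 4, while Prtn3 exceeded it only in Cre-GFP 2. The linear values of the 6 genes all exceeded the 20th percentile of their array, which was 27.1 to 28.3, and no detection calls were used, so whether the lower readings stand for expression is not known. RMA can compress differences at low intensities, and whether it did so here was not tested.

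**Figure D2:**
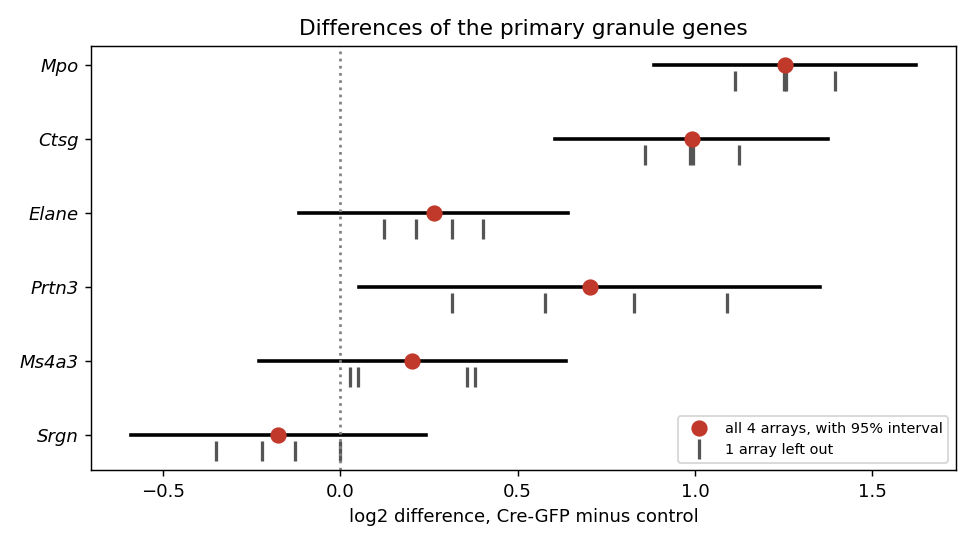
Log2 difference between Cre-GFP and control for each gene (x axis; red points, all 4 arrays; black bars, 95% confidence intervals of limma) and the difference with each single array left out (grey ticks). Mpo stays between 1.11 and 1.39 and Ctsg between 0.86 and 1.12, while Prtn3 spreads from 0.32 to 1.09 and Srgn lies at or below 0.

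Whether the genes moved as a single program was described through their 4-array profiles, each centred on its own mean, using the Euclidean distance between profiles in log2 units over the 4 arrays. The profile of Mpo was closest to that of Ctsg among the members, at a distance of 0.38, and lay 0.68 from Prtn3, 0.99 from Elane and 1.16 from Ms4a3, with Srgn the farthest. Ms4a3 and Srgn were 0.42 apart and Elane and Ms4a3 0.45. The control arrays differed in both directions: control 2 was lower than control 1 by 0.28 for both Mpo and Elane and by 0.78 for Prtn3, whereas it was higher by 0.30 for Ms4a3 and by 0.35 for Srgn and differed by 0.0075 for Ctsg. For Prtn3, Elane, Ms4a3 and Srgn, the replicates of at least 1 group differed more than the group means did, which was not the case for Mpo and Ctsg.

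The start regions of the 4 genes whose groups did not overlap are shown because PU.1, an Ets factor known to act at these promoters, binds GGAA cores. RefSeq promoter windows (GRCm38.p6) were found for all 6 genes, with 2 starts for Srgn. Each line gives the 250 bases before the annotated start, 5′ to 3′ on the gene's strand, with the letters GAGGAA in capitals.
Mpo (chr11:87793534-87793783, + strand): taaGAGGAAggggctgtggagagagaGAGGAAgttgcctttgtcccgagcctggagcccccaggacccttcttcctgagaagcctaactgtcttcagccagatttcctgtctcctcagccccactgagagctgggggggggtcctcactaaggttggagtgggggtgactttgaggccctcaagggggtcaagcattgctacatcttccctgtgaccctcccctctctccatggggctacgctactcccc
Ctsg (chr14:56102575-56102824, - strand): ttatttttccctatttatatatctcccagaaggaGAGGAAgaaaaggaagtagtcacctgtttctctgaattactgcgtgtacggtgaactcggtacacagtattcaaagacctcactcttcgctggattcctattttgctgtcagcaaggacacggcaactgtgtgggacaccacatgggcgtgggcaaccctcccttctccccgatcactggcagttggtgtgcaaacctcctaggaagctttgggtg
Prtn3 (chr10:79879417-79879666, + strand): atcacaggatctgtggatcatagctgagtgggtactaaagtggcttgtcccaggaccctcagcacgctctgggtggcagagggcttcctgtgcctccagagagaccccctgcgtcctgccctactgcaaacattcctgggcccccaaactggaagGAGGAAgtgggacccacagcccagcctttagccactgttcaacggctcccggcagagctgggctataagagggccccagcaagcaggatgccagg
Elane (chr10:79886062-79886311, + strand): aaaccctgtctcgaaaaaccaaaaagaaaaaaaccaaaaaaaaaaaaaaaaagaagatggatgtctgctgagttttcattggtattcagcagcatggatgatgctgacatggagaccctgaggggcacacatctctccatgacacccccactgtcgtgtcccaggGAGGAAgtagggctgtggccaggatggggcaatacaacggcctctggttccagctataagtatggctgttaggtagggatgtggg
In these windows GAGGAA stood on the gene's strand in each case: 95 to 90 bases before the start of Prtn3, 85 to 80 before that of Elane, 216 to 211 before that of Ctsg, and at 247 to 242 and 224 to 219 before that of Mpo. Prtn3 and Elane also carried AACGG, a form of the Myb motif, 55 to 51 and 50 to 46 bases before the start.

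Searched on both strands in windows that also take in the 50 bases after the start, GAGGAA was found for 5 of the 6 genes, the addition being Ms4a3 with a match from base 36 after the start. The same letters stood in 28.3% of the 32851 RefSeq windows, and in at least 1 window for 31.3% of the 27025 genes. AACNG (Myb) was found for 5 of the 6 genes, not in the window of Ms4a3, and in 80.3% of all windows (82.4% of genes). TGTGGT (Runx) was found for Ctsg and the second start of Srgn (16.8% of all windows, 18.9% of genes). TTGCNNAA (C/EBP) was found for Ms4a3 alone (10.8% of all windows, 12.2% of genes). Matches of different motifs did not overlap in the members, while 2 AACNG matches of Srgn shared bases. These are matches of letters, and binding was not measured.

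The regulators of these genes were found on both sides of 0. Of 17 measured transcription factors linked to granule genes or to the fusion, 10 were higher and 7 lower in Cre-GFP (50.1% of all genes were higher), 0 passed adjustment over all probe sets, and the median log2 difference was 0.03. For single genes here and below, the probe set with the highest mean was used, 1 for each of 12394 genes, and on that basis 15.2% of all genes were higher without overlap between the groups and 14.9% lower. Among the factors, 5 were higher without overlap and 1 lower.

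Spi1, the gene of PU.1, read 7.44 and 7.27 with Cre-GFP, against 7.54 and 7.22 in the controls (−0.03 ± 0.18, log2 difference and SE). Myb, which keeps progenitors cycling, read 12.57 and 12.55 against 12.63 and 12.55 (−0.03 ± 0.12). Runx1 (0.03 ± 0.19), Cebpa (−0.10 ± 0.14) and Irf8, a monocyte and B cell factor (−0.10 ± 0.27), also overlapped between the groups. Of the other C/EBP genes in the list, Cebpb was higher without overlap, with 6.36 and 6.57 against 6.27 and 5.84 (0.41 ± 0.18, unadjusted p = 0.0669 in limma). Cebpd (−0.04 ± 0.11) and Cebpg (0.14 ± 0.18) overlapped. Other probe sets differed by −0.22 to −0.00 for Runx1, by −0.02 to 0.12 for Myb and by −0.29 for Irf8, and none of these was past the threshold.

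Gfi1, a repressor needed for neutrophil formation, lay lower in Cre-GFP, with 6.87 and 6.61 against 7.64 and 7.004 in control 1 and 2 (−0.58 ± 0.24, unadjusted p = 0.0532 in limma). Cebpe was not named by the tables used here. The factors with the smallest unadjusted p were Meis1 (1.73 ± 0.14, adjusted p = 0.19 in limma) and Hoxa9 (1.26 ± 0.18, adjusted p = 0.31 in limma, with 0.45 on a second probe set), the homeobox pair known from MLL fusion leukemia.

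Hoxa9 was also the gene whose 4-array profile lay closest to that of Mpo, at a distance of 0.16 log2 units among 6195 other genes with a mean at or above the median. The distance uses the same 4 values as the group comparison, so genes near a member share its group difference by construction. A link between such genes was not tested. Hoxa9 read 12.31 and 12.52 with Cre-GFP, against 11.33 and 10.98 in the controls. The next 7 genes, at distances of 0.30 to 0.40, were Hexa (a lysosomal hexosaminidase chain), Cst7, Satb1 (a chromatin organizer of lymphoid cells), Mylk (myosin light chain kinase), Pard6g (a cell polarity protein), Cnn3 (a calponin) and Tjp1 (a tight junction scaffold). Their log2 differences ran from 0.89 ± 0.18 for Cnn3 to 1.46 ± 0.22 for Hexa. Ctsg, left out of this ranking as a member, lay at 0.38. Other probe sets of Mylk differed by 0.00 and 1.14, that of Pard6g by 0.00, and the second probe set of Hoxa9 by 0.45. The distance to Mpo was taken on the brightest probe set only, and for Hoxa9, Mylk and Pard6g the difference depended on the probe set.

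Elane, with its small difference, had closer matches: Tspan2, a tetraspanin, lay at 0.020, and Qtrt1, Tgif2, Plekhf1, Mkrn2, Cry1, Cdk8 and Pgrmc2 at 0.041 to 0.076. Each of these 8 differed by 0.20 to 0.27 between the groups, close to Elane as the ranking requires, and 0 passed the threshold. On other probe sets Tspan2 differed by 0.20 and 0.31, Mkrn2 by −0.11 and Pgrmc2 by 0.01.

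Other genes listed with the primary granule gave a mixed picture. The list is broad. It holds Epx (−0.02, lower without overlap) and Prg2 (0.10), also counted below among mast cell, basophil and eosinophil markers. Serpinb1a, also counted as a protease inhibitor, is in it too. Of 11 measured genes, 8 were higher and 3 lower in Cre-GFP, with 4 higher and 2 lower without overlap, a median log2 difference of 0.12 against 0.00 over all genes, and 3 at an unadjusted p under 0.05 with a higher mean (2.18% of all genes). Cst7, cystatin F, an inhibitor of the proteases that activate granule enzymes, read 8.54 and 8.86 in Cre-GFP 1 and 2, against 7.83 and 7.36 in control 1 and 2 (1.11 ± 0.23, adjusted p = 0.63 in limma). Gusb, the acid hydrolase beta-glucuronidase, differed by 0.47 ± 0.17, with 0.38 on a second probe set. Lyz1, a lysozyme shared with macrophages and late granules, read 11.79 and 11.15 against 9.27 and 10.94 (1.36 ± 0.54). Control 1 lay far below the other arrays, and other Lyz1 probe sets differed by 0.19 and 1.33. Lyz2, a second lysozyme counted in the list, read 9.39 and 8.88 against 7.55 and 8.76 (0.98 ± 0.41), again with control 1 lowest. Whether the Lyz1 and Lyz2 probe sets read separate transcripts was not tested.

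Ctsc, which activates Ctsg, Elane and Prtn3, went the other way by a small amount, with 10.55 and 10.50 in Cre-GFP 1 and 2, against 10.80 and 10.63 in control 1 and 2 (−0.19 ± 0.16). The elastase inhibitor Serpinb1a differed by 0.12 ± 0.22, with −0.15 on a second probe set. Among 10 measured protease inhibitors the median was 0.02, with 6 higher and 4 lower. Only Spint2, an inhibitor of membrane-bound serine proteases, had an unadjusted p under 0.05 in that list (0.50 ± 0.16, and 0.94 on a second probe set), while Serpina3n (0.17 ± 0.14) and the cathepsin inhibitor Cstb (−0.18 ± 0.22) overlapped.

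**Figure D3:**
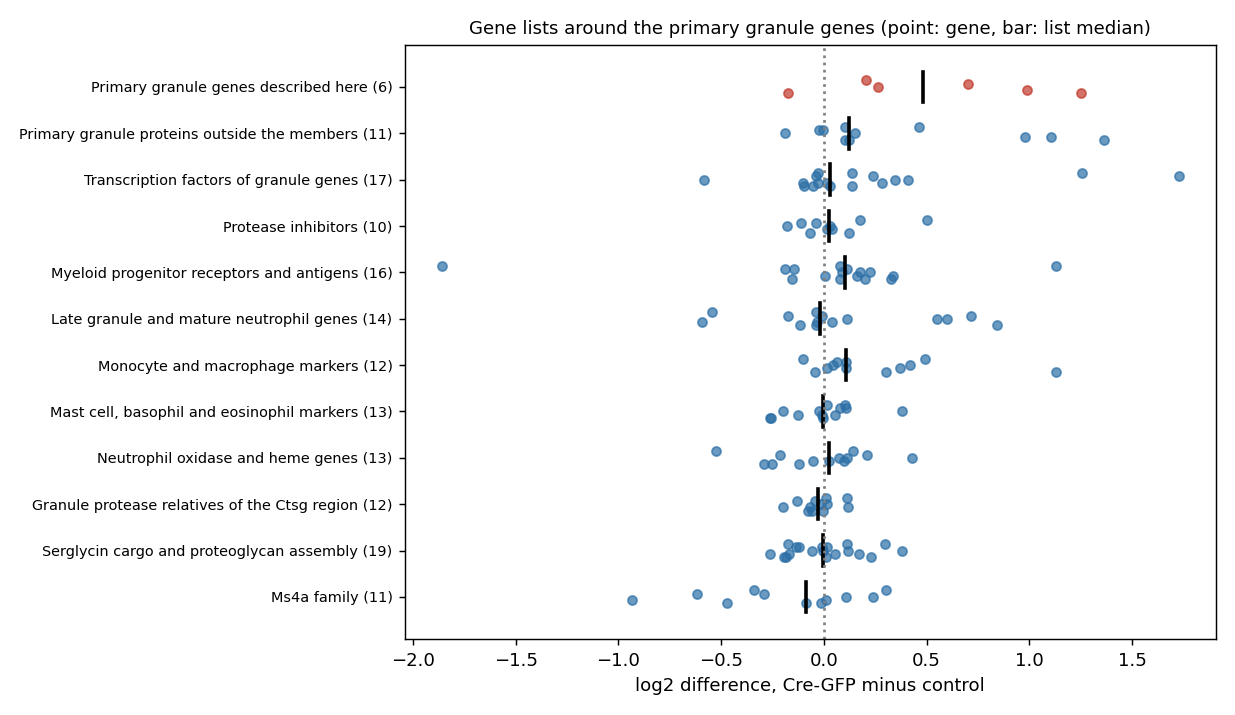
Log2 difference between Cre-GFP and control (x axis) of each measured gene in the named lists (rows, with the number of genes), with black bars for list medians and red points for the 6 primary granule genes. The median is 0.48 for the 6 genes and lies between −0.09 and 0.12 for the other lists drawn; the B lineage list, not drawn, has a median of −0.42.

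Late granule and mature neutrophil genes overlapped between the groups in most cases. None of 14 measured genes (0) was higher without overlap, 3 were lower without overlap, and the median was −0.02. S100a8, a chain of calprotectin, given because it had the widest gap between the control arrays in the list, read 10.47 and 11.07 with Cre-GFP, against 8.98 and 11.47 in the controls, a spread of 2.49 between the controls. Ngp, a late granule protein, read 9.81 and 9.90 against 7.94 and 10.07 (0.84 ± 0.64). Control 1 was thus the lowest array for S100a8 and Ngp, and for Mpo and Prtn3 the lowest was control 2. Mmp9, gelatinase B of the late granules, was lower in Cre-GFP (−0.54 ± 0.17, −0.12 on a second probe set), as was the collagenase Mmp8 by a smaller amount (−0.17 ± 0.12).

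**Figure D4:**
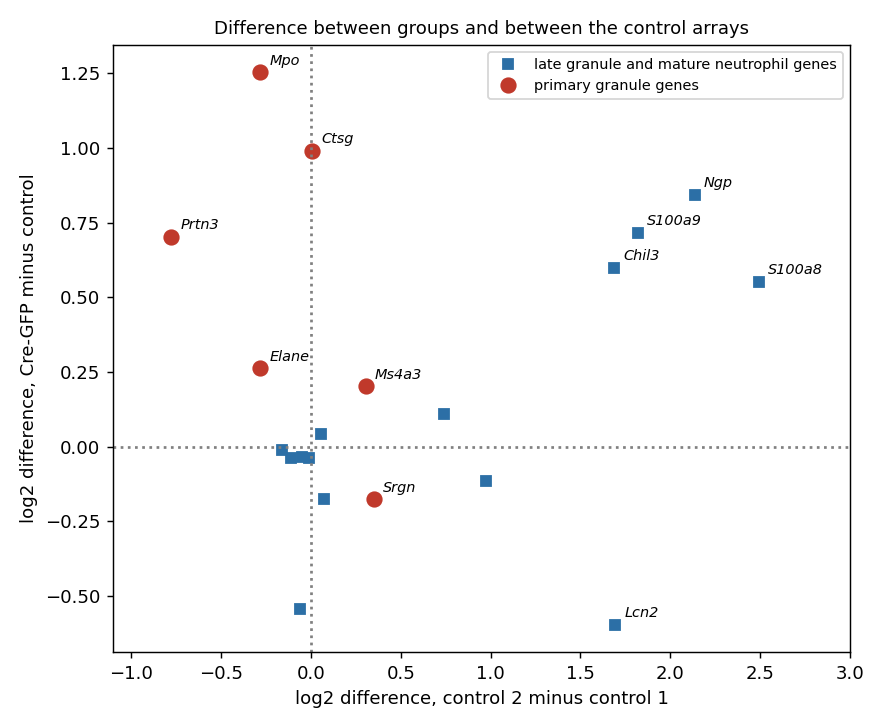
Log2 difference between the groups (y axis) against that between control 2 and control 1 (x axis) for the 6 primary granule genes (red circles) and the 14 measured late granule and mature neutrophil genes (blue squares). Mpo, Ctsg and Prtn3 combine a higher mean in Cre-GFP with a control difference from −0.78 to 0.01, whereas S100a8, S100a9, Ngp, Chil3 and Lcn2 differ by more than 1 between the control arrays.

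Receptors and antigens of myeloid progenitors were higher in 12 of 16 cases, with a median of 0.10, 5 higher and 3 lower without overlap. Csf1r, whose ligand is macrophage colony-stimulating factor (M-CSF), read 10.01 and 9.32 in Cre-GFP 1 and 2, against 8.16 and 8.91 in control 1 and 2 (1.13 ± 0.34), with 0.17 and 0.36 on its other probe sets. Csf2rb, the shared chain of the GM-CSF, IL-3 and IL-5 receptors, differed by 0.34 ± 0.14 at low intensity. Fcgr2b, an inhibitory Fc receptor of B and myeloid cells, was lower (−1.86 ± 0.31, adjusted p = 0.40 in limma, −1.44 to −0.66 on its other probe sets). Of 13 measured oxidase and heme synthesis genes, which supply peroxide and the heme of Mpo, 7 were higher and 6 lower (median 0.02, 4 without overlap in each direction). Cybb and Cyba, the membrane chains of the oxidase, differed by −0.25 ± 0.10 and −0.53 ± 0.27, and Cpox, a heme synthesis enzyme, by 0.21 ± 0.12.

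Relatives and neighbours of Ctsg and Mpo differed little between the groups. The granzymes and mast cell proteases of the Ctsg region had 12 measured genes, 4 higher and 8 lower, with differences from −0.20 to 0.12 and none above its array's median intensity (0 of 12 in each array). Of the genes next to Ctsg, Mcpt8 differed by −0.20 ± 0.17 and Gzme by 0.01 ± 0.08, and Lpo, the peroxidase next to Mpo, differed by −0.14 ± 0.15. Gzmb (0.12 ± 0.11) and Mcpt2 (0.11 ± 0.13) had the smallest p-values of the region beside Mcpt8. Vps26a, a neighbour of Srgn, differed by 0.26 ± 0.16.

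Among 11 measured relatives of Ms4a3 in the Ms4a family, 4 were higher and 7 lower, 6 of them lower without overlap, with a median of −0.09. The lower ones included Ms4a6b (−0.93 ± 0.21), Ms4a4b (−0.62 ± 0.11, −0.10 on a second probe set) and Ms4a1, the B cell antigen CD20 (−0.47 ± 0.15, −0.12 on a second probe set). Ms4a2, the mast cell gene next to Ms4a3, differed by 0.11 ± 0.12. Of 19 measured genes for serglycin cargo and for the enzymes that build its sugar chains, 9 were higher and 10 lower, with a median of −0.00. Within this list Tpsb2, a mast cell tryptase, differed by 0.38 ± 0.13 (0.22 on a second probe set), Csgalnact2, an enzyme that starts chondroitin chains, by 0.23 ± 0.14 at low intensity, and Prf1, perforin, by −0.19 ± 0.11 (0.08 on a second probe set).

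Markers of other cells were read beside these results. In bulk RNA, more cells of a type and more RNA per cell cannot be told apart. B lineage markers were well represented: 9 of 11 measured B lineage markers lay above the array median in each array. Their summed linear intensity was 34110 and 34261 with Cre-GFP, against 36904 and 46445 in the controls. Igll1 and Vpreb1, the brightest of the list in each array, weigh most in these sums and differed by −0.19 ± 0.10 and −0.23 ± 0.17. In the list 9 were lower and 2 higher in Cre-GFP, with a median log2 difference of −0.42. Of the 11, 7 were lower without overlap (14.9% of all genes) and 4 had an unadjusted p under 0.05 with a lower mean (2.38% of all genes), while 0 passed adjustment in limma. In this list Cd79b (−1.70 ± 0.43), Cd79a (−0.80 ± 0.21) and Ebf1 (−0.51 ± 0.15) had the smallest p-values. Monocyte and macrophage markers summed to 2753 and 2263 with Cre-GFP, against 1674 and 2155 in the controls, with 10 of 12 higher and a median of 0.11. Csf1r alone gave 1033 and 638 of these sums, against 287 and 481, and without it the other 11 markers summed to 1720 and 1624, against 1387 and 1674, so that the groups overlapped. Apoe differed by 0.37 ± 0.13 and Ccr2 by 0.42 ± 0.19, with −0.05 and 0.04 on the other Ccr2 probe sets. Late granule genes summed to 3787 and 4490 against 1701 and 5616, and mast cell, basophil and eosinophil markers to 789 and 772 against 782 and 802 (13 measured, 6 higher and 7 lower, median −0.00). The part of the B lineage and monocyte markers in the difference of Mpo and Ctsg was not tested.

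The remaining marker lists had medians near 0, although some single genes in them lay further from 0. T lineage markers had 4 of 8 higher (median 0.00), NK and cytotoxic markers 4 of 9 (−0.02), erythroid and megakaryocyte markers 6 of 12 (−0.01) and dendritic cell markers 5 of 11 (−0.01). Of the 11 dendritic cell markers, 3 were lower and 2 higher without overlap (14.9% and 15.2% of all genes). In limma, 3 had an unadjusted p under 0.05 with a lower mean (2.38% of all genes), and 0 passed adjustment. These were H2-Ab1 (−0.92 ± 0.21, −0.41 to −0.09 on its other probe sets), Ccr7 (−0.75 ± 0.18) and H2-Aa (−0.82 ± 0.27, −0.00 on a second probe set). The summed level of the erythroid and megakaryocyte list was 1112 and 1142 with Cre-GFP, against 1894 and 1840 in the controls. Carbonic anhydrase Car2 differed by −1.46 ± 0.17, with log2 values of 8.61 and 8.86 against 10.21 and 10.18. All other measured genes of that list differed by −0.12 to 0.19, so the lower sum was not shared across the list. RMA returns no value of 0, so absence of a marker cannot be read from these arrays.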

How the data were processed

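The file deposited by the authors holds linear intensities of probe sets on 4 arrays, made with RMA per the submitters' processing notes. Background correction, quantile equalization and probe summary are usual parts of RMA, and no version of it is stated. Per the labels' protocols, 20 ng of total RNA was amplified for each array. Of 22690 probe sets, 20393 had 1 gene symbol in the platform annotation, and the 691 with several and 1606 with none were left out.

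Values were put on the log2 scale without further normalization. The groups were compared in limma 3.58.1 (R 4.3.3) with lmFit and eBayes, the prior variance following the intensity. Two-sided p-values were adjusted over all 20393 probe sets by Benjamini-Hochberg, at a threshold of 0.05. Errors after ± are limma's standard errors. The procedure was tested on simulated data. The members and the 16 gene lists were chosen with earlier results of these data known, and lists are described by counts and medians without a test. Named genes were all members, up to 3 genes per list with the smallest unadjusted p, a few fixed regulators, the nearest profiles and the genomic neighbours. S100a8, S100a9, Chil3, Lcn2, Cebpb, Cebpd, Cebpg, Epx, Prg2, Lyz2, Igll1 and Vpreb1 were named after their values were seen. Promoter motifs were chosen from general knowledge with the members' differences known. Of the probe sets used, 20364 matched the RefSeq gene table by gene number, with 0 symbols changed. Only 2 arrays per group limit the precision. The median 95% interval of a probe set reached 0.37 log2 units to either side. Alternatives changed the probe set choice, variance model, replicate block, arrays, dim values, normalization, pseudocount and shared probe sets.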

Additional observations from a re-analysis of the deposited data

How the results depend on the processing

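Mpo, Ctsg, Prtn3, Elane and Ms4a3 stayed higher in Cre-GFP in all 14 alternatives, Srgn stayed lower except without control 2, where its difference was 0 within rounding, and 0 of the 6 passed the adjusted threshold in any of them. With single arrays left out, Mpo ranged from 1.11 to 1.39, Ctsg from 0.86 to 1.12, Prtn3 from 0.32 to 1.09, Elane from 0.12 to 0.40, Ms4a3 from 0.03 to 0.38 and Srgn from −0.35 to −0.00. The median over the 6 ranged from 0.34 (without control 2) to 0.70 (without control 1) in the same settings, and with 32 added to each intensity it was 0.33, with Prtn3 at 0.47 and Ms4a3 at 0.14. Over all probe sets, 0 passed with all arrays, and 0 to 25 with 1 array left out: 25 without control 1 and 1 without control 2, the lone control then being assumed to vary like the other group. With the replicate number as a block, 0 passed and the adjusted p of Mpo was 0.48, and 1547 probe sets had an unadjusted p under 0.05, against 976 without the block. That count was 600 with 1 probe set per gene and 604 without the dimmest 40%, where fewer were tested. Same-numbered arrays deviated together (correlation 0.36 over 20393 probe sets). By median absolute log2 difference, same-numbered arrays of the 2 groups lay 0.13 apart in each case. The Cre-GFP arrays lay 0.16 apart and the control arrays 0.15, so same-numbered arrays were closer than arrays of a group. With 2 pairs and no label tying them, the numbers were still not taken as pairs. Signal near the array median limits Mpo, Prtn3, Elane and Ms4a3, and also Ctsg in the control arrays (linear values of 98.5 and 99.0).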
